A study of Mus musculus with 6 samples.

Results

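The genes described are 10 macrophage receptors and adaptors: the IgG receptor genes Fcgr1, Fcgr2b, Fcgr3 and Fcgr4, their signalling chain Fcer1g, the Trem receptor genes Trem1, Trem2 and Trem3, the adaptor Tyrobp, and the inhibitory receptor gene Pirb. They were chosen by name and matched by symbol through the platform annotation, and all 10 were found, with 1 probe set each, among 19505 named genes. RAW264.7 cells, a mouse macrophage line transformed by Abelson leukaemia virus, were grown for 3 days on a modified polyetheretherketone (PEEK) surface or on the pristine polymer, an implant material, with 3 Affymetrix arrays of total RNA per surface. What was done to the modified surface is not stated in the labels used here, and both groups grew in the same serum-containing medium with no other agent named. The comparison asks how the modified surface changed the cells' transcripts relative to pristine PEEK.

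Fc gamma receptors bind the constant part of IgG and let macrophages take up antibody-coated particles. The activating receptors Fcgr1, Fcgr3 and Fcgr4 signal through Fcer1g, whose tail carries an immunoreceptor tyrosine-based activation motif (ITAM) that recruits the kinase Syk. Fcgr2b carries an inhibitory motif (ITIM) in its own tail and restrains the activating receptors through the phosphatase Inpp5d. The Trem receptors have short tails and signal through the ITAM of Tyrobp, also called DAP12. Pirb is an ITIM receptor for MHC class I molecules that recruits the phosphatase Ptpn6.

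Of the 10 genes, 3 fell on modified PEEK, all of them IgG receptor genes: Fcgr1, Fcgr4 and Fcgr2b. Fcgr1 fell by 0.85 on the log2 scale, which is 1.80-fold (SE 0.10; limma, Benjamini-Hochberg adjusted p = 0.00166, lower on 3 of 3 arrays). Fcgr4 fell by 0.86, or 1.81-fold (SE 0.20; limma adjusted p = 0.0321), and Fcgr2b by 0.44, or 1.36-fold (SE 0.10; limma adjusted p = 0.0254). None of the Trem genes, Tyrobp, Pirb, Fcer1g or Fcgr3 passed an adjusted p of 0.05 with limma. Over all genes, 5.15% were called lower and 5.24% higher, 10.4% in all. That share is larger among brighter genes. Without genes below the background described further on, 20.1% of all genes and 3 of the 10 were called. Without the lowest 50% of genes by mean signal, 30.7% of all genes were called. Of the 8 members left there, 3 were lower and 1 higher. By limma 0 of the 10 genes were called higher, with 1 higher at an unadjusted p under 0.05 and 0 by the ordinary t statistic after adjustment. The median change was -0.19 over the 10 genes and 0.0088 over all 19505.

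The promoters of Fcgr1, Fcgr4, Fcgr2b and Fcgr3 are shown because the first 3 are the receptors that fell and Fcgr3 is the activating receptor that did not pass. Each window runs from 250 bases before to 50 after the annotated start in RefSeq on GRCm38.p6, written 5′ to 3′ along the gene. Capitals mark matches, on either strand, to GAGGAA (the core bound by PU.1 and other ETS factors), TTCNNNGAA (the gamma-activated site, GAS), the interferon-stimulated response element (ISRE: GAAA, any 2 bases, GAAA) or TGANTCA (AP-1).
Fcgr1 (chr3:96293920-96294219, minus strand): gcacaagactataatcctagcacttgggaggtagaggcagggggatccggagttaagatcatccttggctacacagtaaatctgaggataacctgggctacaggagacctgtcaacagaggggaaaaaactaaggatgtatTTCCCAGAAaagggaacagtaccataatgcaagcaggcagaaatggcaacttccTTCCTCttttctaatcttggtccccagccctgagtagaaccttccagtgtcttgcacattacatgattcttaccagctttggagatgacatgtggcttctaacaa
Fcgr4 (chr1:171018676-171018975, plus strand): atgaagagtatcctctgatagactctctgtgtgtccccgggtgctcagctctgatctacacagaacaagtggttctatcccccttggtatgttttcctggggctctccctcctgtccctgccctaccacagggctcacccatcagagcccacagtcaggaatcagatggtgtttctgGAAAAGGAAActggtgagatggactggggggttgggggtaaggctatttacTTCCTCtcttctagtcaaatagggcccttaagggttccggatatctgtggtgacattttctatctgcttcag
Fcgr2b (chr1:170976022-170976321, minus strand): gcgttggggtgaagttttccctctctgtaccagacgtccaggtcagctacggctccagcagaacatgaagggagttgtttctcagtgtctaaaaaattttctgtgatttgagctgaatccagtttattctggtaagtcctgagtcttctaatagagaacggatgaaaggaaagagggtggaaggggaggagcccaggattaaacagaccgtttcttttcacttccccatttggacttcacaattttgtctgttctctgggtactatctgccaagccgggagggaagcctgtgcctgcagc
Fcgr3 (chr1:171059354-171059653, minus strand): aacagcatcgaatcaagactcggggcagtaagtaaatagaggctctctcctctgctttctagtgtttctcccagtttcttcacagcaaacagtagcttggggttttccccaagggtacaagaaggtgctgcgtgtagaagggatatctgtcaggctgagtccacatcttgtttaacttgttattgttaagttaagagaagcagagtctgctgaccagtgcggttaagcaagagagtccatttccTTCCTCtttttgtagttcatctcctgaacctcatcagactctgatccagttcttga
The Fcgr1 window held a GAS match, TTCCCAGAA, beginning 109 bases before the start, and an ETS core match 55 bases before it. The Fcgr4 window held an ISRE match, GAAAAGGAAA, 73 bases before the start and an ETS core match 22 bases before it. The Fcgr3 window shown had an ETS core match 6 bases before the start, and the Fcgr2b window had none of the 4 motifs. Of 32851 promoter windows of the same length, 28.3% held the ETS core, 8.30% the GAS, 3.44% the ISRE and 7.81% the AP-1 motif. RefSeq windows were found for 8 of the 10 genes. Among the rest of them, Trem2 had an ETS core match 40 bases and an AP-1 match 9 bases before its start, Trem1 had 1 GAS and 1 ETS core match, Pirb had 3 ETS core matches and Fcer1g had none of the 4. No match overlapped a match to another of the 4 motifs. A match describes the letters of the window and is not a measurement of binding.

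Markers of macrophages were detected on the arrays. Signals are log2 values per probe set, and a background of 3.72 was set below which 95% of 1412 genes for smell and pheromone receptors lay. Of 12 measured macrophage markers, 11 averaged above it, while of 37 measured markers of B, T and NK, mast, neutrophil, dendritic, and fibroblast or epithelial cells, 24 averaged below it. The mean level of those 6 marker lists lay between 2.93 and 4.40 on modified and between 3.00 and 4.06 on pristine PEEK arrays. By limma 0 of the 37 were called, with 3 at an unadjusted p under 0.05. Macrophage markers moved in both directions, with 3 higher and 1 lower; the 3 include Mertk, a clearance receptor gene below the background on both surfaces (adjusted p = 0.0496). The rest were Adgre1 (the F4/80 antigen, 0.54 higher), Itgam (an integrin chain, 0.59 lower) and Aif1. Aif1 was at least 1.61-fold higher, its mean on pristine PEEK lying below the background (limma adjusted p = 0.00408). The part of these markers in the results was not tested. The labels speak of triplicates without saying whether these were separate cultures, so every p-value rests on a spread between samples that may be technical. Fewer cells with a transcript and less of it per cell cannot be told apart in such bulk RNA.

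Fcgr1, the high-affinity receptor for IgG, had log2 signals of 8.34, 8.12 and 8.19 on modified PEEK, against 8.95, 9.17 and 9.09 on pristine PEEK. The groups were separated by a gap of 0.62, wider than the range within either surface (0.21 on each). Its mean was 8.22 ± 0.11 on modified and 9.07 ± 0.11 on pristine PEEK (SD, n = 3 each), and only 1.36% of all genes had a lower change. The limma call held in each of 19 alternative settings, and the highest adjusted p among them was 0.0246. Those settings include probe-set rules, which leave a gene with 1 probe set as it was.

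**Figure D1:**
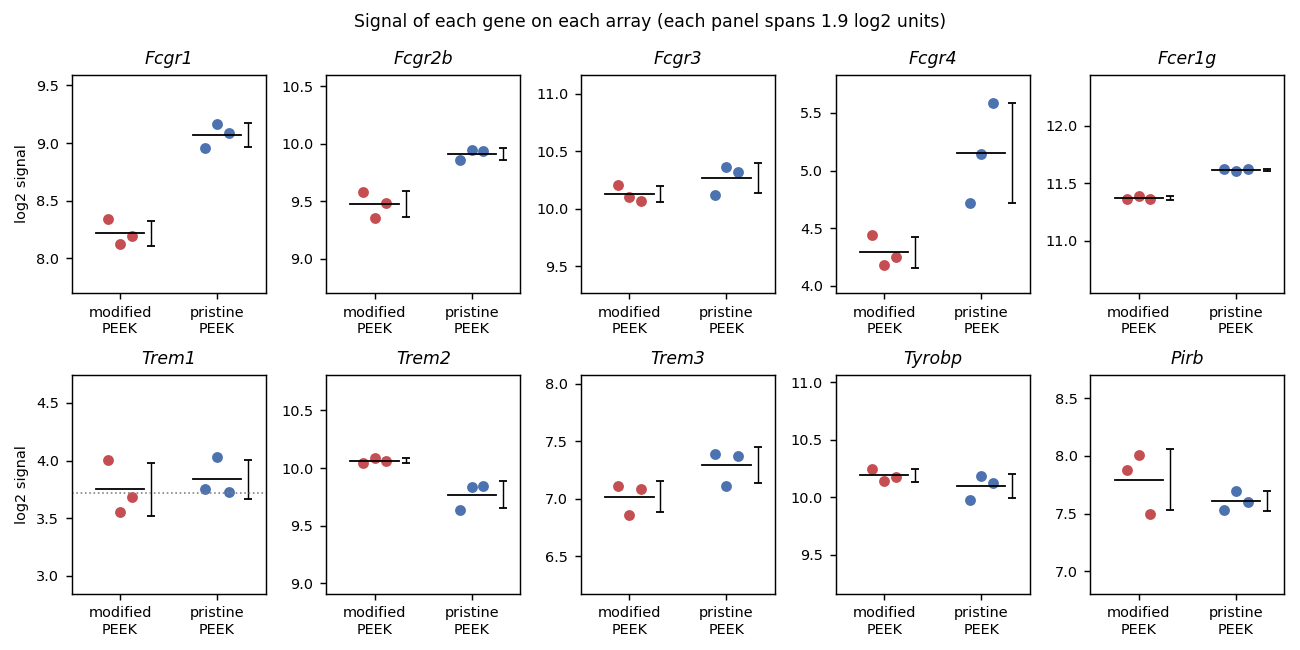
Log2 signal (vertical axis) of each of the 10 genes on the 3 modified PEEK arrays (red, left) and the 3 pristine PEEK arrays (blue, right); the horizontal line is the group mean, the bar beside it 1 SD on either side, and the dotted line in the Trem1 panel the background of 3.72. All panels span the same height, and Fcgr1 shows the widest gap between the surfaces (0.62), while the Fcer1g arrays of each surface nearly coincide.

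Fcgr4, the activating receptor for IgG2a and IgG2b in mice, gave 4.44, 4.18 and 4.25 on modified PEEK, against 4.72, 5.14 and 5.58 on pristine PEEK. The groups did not overlap, but the pristine PEEK arrays ranged over 0.87, against 0.25 on modified PEEK, and 94.5% of genes had a smaller residual SD. All 3 modified PEEK arrays lay above the background, by at least 0.46. Its adjusted p passed without pristine PEEK replicate 1 (0.00954, with a change of -1.07). It did not pass without pristine PEEK replicate 2 (0.0896) or 3 (0.0669, with a change of -0.64), nor without modified PEEK replicate 1 (0.0597), 2 (0.0922) or 3 (0.114). The adjusted p was 0.0518 after repeated quantile normalization and 0.170 with the ordinary t statistic.

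Fcgr2b, the inhibitory receptor, had signals of 9.58, 9.36 and 9.48 on modified PEEK, against 9.86, 9.94 and 9.94 on pristine PEEK. Every modified PEEK array lay below every pristine PEEK array, with a gap of 0.27. The call was kept without modified PEEK replicate 1 (adjusted p = 0.0273). It was lost without modified PEEK replicate 2 (0.0657) or 3 (0.0769) and without pristine PEEK replicate 1 (0.0667), 2 (0.0993) or 3 (0.105), while the change stayed between -0.49 and -0.38. Scaled to the poly-A spikes the change was -0.19 (adjusted p = 0.394), or -0.45 relative to the median of all genes, which that scaling moves to 0.26. Centred on array medians, its adjusted p was 0.0609.

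Fcgr3, the low-affinity activating receptor, had signals of 10.20, 10.10 and 10.07 on modified PEEK, against 10.12, 10.36 and 10.32 on pristine PEEK. The groups overlapped, with a change of -0.14 (95% confidence interval -0.38 to 0.093, limma adjusted p = 0.483). Scaled to the spikes the change was 0.10, or -0.15 relative to the median of all genes. Fcgr2b and Fcgr3 have nearly identical extracellular domains, and whether the probes of these probe sets share targets was not tested.

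Fcer1g, the gamma chain shared by the activating receptors, had signals of 11.36, 11.39 and 11.37 on modified PEEK, against 11.63, 11.61 and 11.62 on pristine PEEK. Each group spanned less than 0.03 while a gap of 0.21 lay between them, and only 0.0308% of genes had a smaller residual SD. The change was -0.24 (95% confidence interval -0.44 to -0.0484) with a limma adjusted p of 0.125, since moderation replaces so small an SD by a larger one drawn toward that of all genes. With the ordinary t statistic, which keeps the gene's own SD, the adjusted p was 0.00818, and when the variance was let vary with signal intensity (an intensity trend) it was 2.90e-05. Scaled to the spikes, the change was 0.00456 (limma adjusted p = 0.988), or -0.25 relative to the median of all genes.

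**Figure D2:**
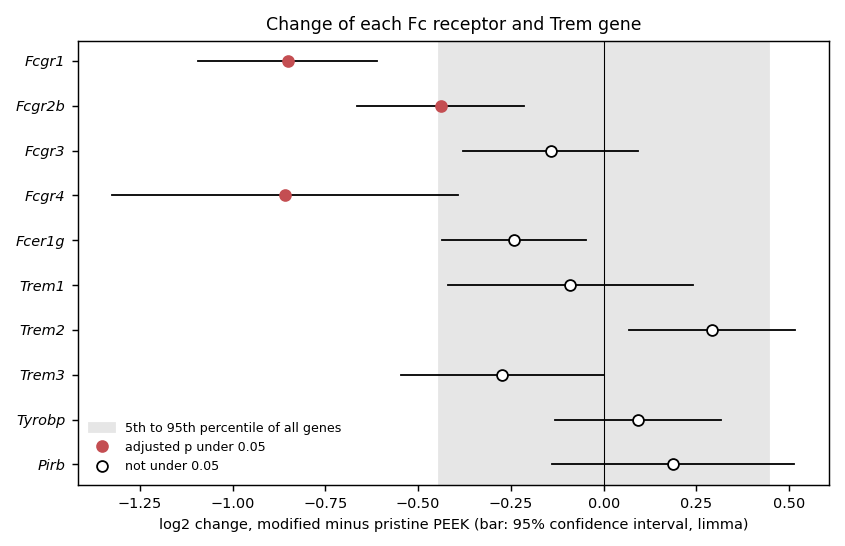
Log2 change, modified minus pristine PEEK (horizontal axis), of each of the 10 genes with its 95% confidence interval from limma; filled points passed an adjusted p of 0.05, and the grey band runs from the 5th to the 95th percentile of the changes of all genes (-0.44 to 0.44). Fcgr1 (-0.85) and Fcgr4 (-0.86) lie outside the band on the lower side, Fcgr2b (-0.44) lies at its edge, and Trem2 (0.29) is the highest of the 10; the Trem1 signals lie around the background.

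Trem2, a receptor for lipids and lipoproteins that supports macrophage survival and phagocytosis, had signals of 10.04, 10.09 and 10.06 on modified PEEK, against 9.63, 9.83 and 9.84 on pristine PEEK. The 3 modified PEEK arrays lay above the 3 pristine PEEK arrays, with a gap of 0.20. The change was 0.29 (95% confidence interval 0.0690 to 0.52; limma adjusted p = 0.110). It passed with an intensity trend (limma adjusted p = 0.000842) and with the lowest 50% of genes by mean signal left out (0.0267). Scaled to the spikes it also passed (0.54, limma adjusted p = 0.0485), a change of 0.28 relative to the median of all genes. It passed in none of the 6 fits with 1 array left out (0.142 to 0.301).

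Trem3, a Tyrobp-coupled activating receptor in mice, had signals of 7.11, 6.86 and 7.08 on modified PEEK, against 7.39, 7.11 and 7.37 on pristine PEEK. The groups were set apart by no more than 0.00205, and the change of -0.27 (95% confidence interval -0.55 to 0.000186) had a limma adjusted p of 0.221. Trem1, which amplifies inflammatory responses, had signals of 4.01, 3.56 and 3.69 on modified PEEK, against 3.75, 4.03 and 3.73 on pristine PEEK. These lie around the background of 3.72 on both surfaces, so no change is read from them.

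Tyrobp, the adaptor of the Trem receptors, had signals of 10.25, 10.14 and 10.18 on modified PEEK, against 9.98, 10.19 and 10.13 on pristine PEEK. The surfaces overlapped, with a change of 0.0924 (95% confidence interval -0.13 to 0.32; limma adjusted p = 0.655). Pirb had signals of 7.87, 8.01 and 7.50 on modified PEEK, against 7.53, 7.70 and 7.60 on pristine PEEK, and also overlapped. Its change was 0.19 (95% confidence interval -0.14 to 0.51; limma adjusted p = 0.509), and reached 0.34 without modified PEEK replicate 3. Pirb lies beside the closely related activating Pira genes, from which its probe set may also receive signal; this was not tested.

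In all, 6 of the 10 genes had groups that did not overlap, 5 lower and 1 higher on modified PEEK. Over all genes 28.8% did not overlap, 14.5% lower and 14.3% higher. The 6 were Fcgr1, Fcgr2b, Fcgr4, Fcer1g and Trem3 on the lower side and Trem2 on the higher side.

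The IgG receptor genes had unequal log2 changes. On each array the log2 signal of Fcgr2b was subtracted from that of an activating receptor, which shows unequal change between the genes and not their relative level. Fcgr3 minus Fcgr2b was 0.62, 0.74 and 0.59 on modified PEEK, against 0.27, 0.42 and 0.38 on pristine PEEK. Fcgr3 was therefore 0.30 higher relative to Fcgr2b on modified PEEK, with no overlap. Fcgr1 minus Fcgr2b was -1.24, -1.23 and -1.29 on modified PEEK, against -0.90, -0.78 and -0.85 on pristine PEEK, a shift of -0.41 with no overlap. Fcgr4 minus Fcgr2b shifted by -0.42, with the pristine PEEK arrays spread from -5.14 to -4.35, and by -0.22 without pristine PEEK replicate 3. Here the nearest values were -5.145 on modified and -5.139 on pristine PEEK, so the groups almost touch. Relative to their shared chain Fcer1g, Fcgr1 shifted by -0.61 without overlap and Fcgr3 by 0.0994 with overlap. Fcgr4 shifted by -0.62 relative to Fcer1g (-0.40 without pristine PEEK replicate 3). Its groups did not overlap, though the nearest values were -6.93 on modified and -6.91 on pristine PEEK.

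Among the Tyrobp partners, Trem2 minus Tyrobp was -0.21, -0.0585 and -0.12 on modified PEEK, against -0.35, -0.35 and -0.29 on pristine PEEK. Trem2 was thus 0.20 higher relative to its adaptor on modified PEEK, and the arrays did not overlap. Trem3 minus Tyrobp shifted the other way, by -0.37, also without overlap, though the nearest values were -3.10 on modified and -3.07 on pristine PEEK. Trem1 is left aside, being next to the background. These shifts are given without a p, and each is a difference of 2 values from the same array, so a scaling factor of the whole array cancels in it.

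**Figure D3:**
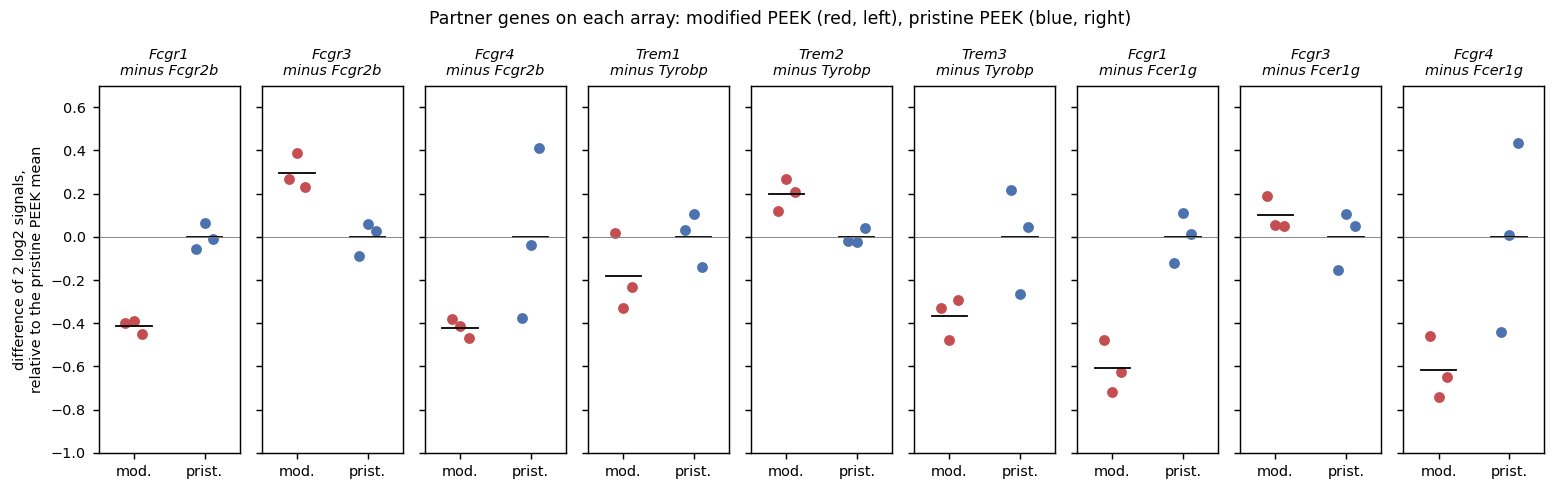
Difference of 2 log2 signals on the same array, set to 0 at the pristine PEEK mean (vertical axis), for 9 pairs of partner genes on the 3 modified PEEK arrays (red, left) and the 3 pristine PEEK arrays (blue, right), with group means as lines. Fcgr1 shifts by -0.41 and Fcgr3 by 0.30 relative to Fcgr2b, and Trem2 shifts by 0.20 and Trem3 by -0.37 relative to Tyrobp.

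By the order of genes in RefSeq on GRCm38.p6, Fcgr2b, Fcgr4 and Fcgr3 are neighbours on chromosome 1, with Fcer1g further along. Between Fcgr3 and Fcer1g, the measured genes had log2 changes from -0.0228 for Sdhc to 0.39 for Pcp4l1, which had the lowest limma adjusted p among them, 0.249. B4galt3, beyond Fcer1g, fell by 0.61 (limma adjusted p = 0.00507). Fcgr1 lies on chromosome 3 beside the histone genes H4c14, H3c13 and H2bc18, which rose by 1.05, 0.91 and 1.51, opposite to Fcgr1. On chromosome 17, Trem2 lies next to Treml1 (0.34, adjusted p = 0.0591). Further along, Nfya did not pass (0.23, limma adjusted p = 0.254) and Oard1 rose (0.58, adjusted p = 0.00644). Next to Tyrobp on chromosome 7, Hcst did not pass (-0.12, limma adjusted p = 0.782). Beyond it, Nfkbid rose (0.61, adjusted p = 0.00988) and Aplp1 fell (-1.02, adjusted p = 0.00507).

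Around these receptors, 7 lists of pathway genes were described by their counts. Together they held 120 measured genes besides the 10, of which 13 were higher and 22 lower, 29.2% in all. The share over all genes was 10.4%, and the lists' median change was -0.0821. By list, the share was 14.3% for the other Fc receptors and for the Pirb ligands, and 10.5% for the other paired receptors. It was 28.6% for the ITAM list, 42.3% for the ITIM list, 40% for the oxidase and 39.1% for the Trem2 list. Scaled to the poly-A spikes, 17 list genes were higher and 6 lower. Over all genes that scaling gave 1575 higher and 290 lower, against 1023 and 1004 without it. The median change under it was 0.17 over the lists and 0.26 over all genes. With dim genes left out, the shares were 35.6% of 104 list genes and 20.1% of all genes without those below background on both surfaces, and 51.1% of 92 list genes and 30.7% of all genes without the lowest 50%. Leaving out 1 array gave 4 to 9 higher and 13 to 22 lower among the 120, with the fewest higher without pristine PEEK replicate 2 and the fewest lower without pristine PEEK replicate 3.

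Other Fc receptors and antibody binders had 2 of 14 genes lower and 0 higher by limma, with 1 higher at an unadjusted p under 0.05 and 0 by the ordinary t statistic. Fcgrt, the neonatal Fc receptor that recycles IgG, had signals of 6.09, 5.85 and 5.67 on modified PEEK, against 6.30, 6.35 and 6.43 on pristine PEEK (limma adjusted p = 0.0424). Fcrl1, an Fc receptor-like gene known from B cells, fell by 0.52 (adjusted p = 0.0210). Both were lower on 3 of 3 arrays. Both calls were lost without modified PEEK replicate 2 or 3 or pristine PEEK replicate 1, 2 or 3, leaving 0, as did scaling to the spikes. The list's median change was -0.11. The carbohydrate-binding protein gene Lgals3 (-0.24, adjusted p = 0.143) and the low-affinity IgE receptor gene Fcer2a (-0.0150, adjusted p = 0.961) did not pass.

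A list of 19 other measured genes held the related adaptor Hcst and receptors that pair with Fcer1g, Tyrobp or Hcst, or resemble such receptors. By limma 2 were lower and 0 higher, 10.5% called, against 10.4% over all genes. The 1 higher at an unadjusted p under 0.05 was the Trem-like gene Treml1, and 0 were higher by the ordinary t statistic. Both genes called lower are Fcer1g-coupled C-type lectins. Clec4e, the Mincle receptor for mycobacterial glycolipids, had signals of 9.86, 9.61 and 9.68 on modified PEEK, against 10.39, 10.43 and 10.31 on pristine PEEK, a fall of 0.66 (adjusted p = 0.00471). Clec4n, the Dectin-2 receptor for fungal mannans, fell by 0.86 to 3.75 on modified PEEK, next to the background (adjusted p = 0.0239). Clec5a (-0.26, adjusted p = 0.138), which pairs with Tyrobp, and Clec4d (-0.26, adjusted p = 0.118) did not pass. Leaving out modified PEEK replicate 1 or 3, or pristine PEEK replicate 2 or 3, left 1 gene lower, and scaling to the spikes left 0. The median change of the 19 was -0.0996.

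Downstream of the ITAMs, 28 kinases, adaptors and effectors were measured, and 4 were higher and 4 lower, with a median change of -0.0103. Src, a kinase of the family that phosphorylates ITAMs, had signals of 5.08, 5.09 and 4.56 on modified PEEK, against 5.83, 5.80 and 6.26 on pristine PEEK (2.08-fold lower, adjusted p = 0.00814). The scaffold genes Gab2 (-0.76, adjusted p = 0.00305) and Lat2 (-0.59, adjusted p = 0.00584) fell, while the linker gene Blnk (0.48, adjusted p = 0.0189) and the phosphoinositide 3-kinase gene Pik3cd (0.47, adjusted p = 0.0160) rose. The rest of the 8, named after their values were seen, were the adaptor gene Lcp2 (-0.44), the kinase gene Tec (0.38) and Pik3r1 (0.45), encoding a phosphoinositide 3-kinase regulatory subunit. Scaled to the spikes, 1 was lower. The cytoskeletal GTPase genes Rac1 (0.0414, adjusted p = 0.846) and Cdc42 (-0.0206, adjusted p = 0.928) did not pass, nor did Syk (-0.24, adjusted p = 0.167), named because the ITAMs recruit it. Leaving out 1 array left 0 genes higher for pristine PEEK replicate 2, 1 for modified PEEK replicate 3 or pristine PEEK replicate 1, and 2 for pristine PEEK replicate 3.

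On the inhibitory side, 26 receptors, phosphatases and adaptors were measured, with 7 lower and 4 higher and a median change of -0.11. Scaled to the spikes, 2 were lower. Among the falls were Pilra, an ITIM receptor, which was at least 3.01-fold lower because its mean lay below the background on modified PEEK (adjusted p = 0.00309), and Cd200r1, which restrains myeloid cells without an ITIM (-0.88, adjusted p = 0.00229). The ITIM receptor gene Ceacam1 (-0.76), the sialic acid-binding adhesion receptor gene Siglec1 (-0.74) and the ubiquitin ligase gene Cblb (-0.71) also fell. The rest, named after their values were seen, were the adaptor gene Dok3 (-0.43) and Lilr4b (-0.41) on the lower side, and the sialic acid-binding receptor genes Cd33 (0.60) and Siglece (0.50) on the higher side. Of the phosphatase genes, Ptpn6, which Pirb recruits, and Inpp5d, which Fcgr2b recruits, rose, and were chosen after their values were seen. Ptpn6 had signals of 9.58, 9.65 and 9.52 on modified PEEK, against 9.09, 9.30 and 9.15 on pristine PEEK (adjusted p = 0.0364). Inpp5d had 9.41, 9.39 and 9.28 on modified PEEK, against 8.94, 8.98 and 8.96 on pristine PEEK (adjusted p = 0.0242). Ptpn11, which Pirb also recruits (-0.0923, adjusted p = 0.709), and Inppl1, a relative of Inpp5d (-0.15, adjusted p = 0.445), did not pass. Sirpa, an ITIM receptor for CD47 (-5.21e-05, adjusted p = 0.9998), and Lilrb4a, an ITIM receptor (-0.26, adjusted p = 0.325), did not pass. Lilr4b, which fell (-0.41, limma adjusted p = 0.0205), is a near-copy of Lilrb4a with a probe set of its own. Whether the probes of these probe sets share targets was not tested. The number lower was 4 without modified PEEK replicate 2 or 3 or pristine PEEK replicate 1, 2 or 3, and the number higher 2 without modified PEEK replicate 2 or pristine PEEK replicate 1, 2 or 3.

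**Figure D4:**
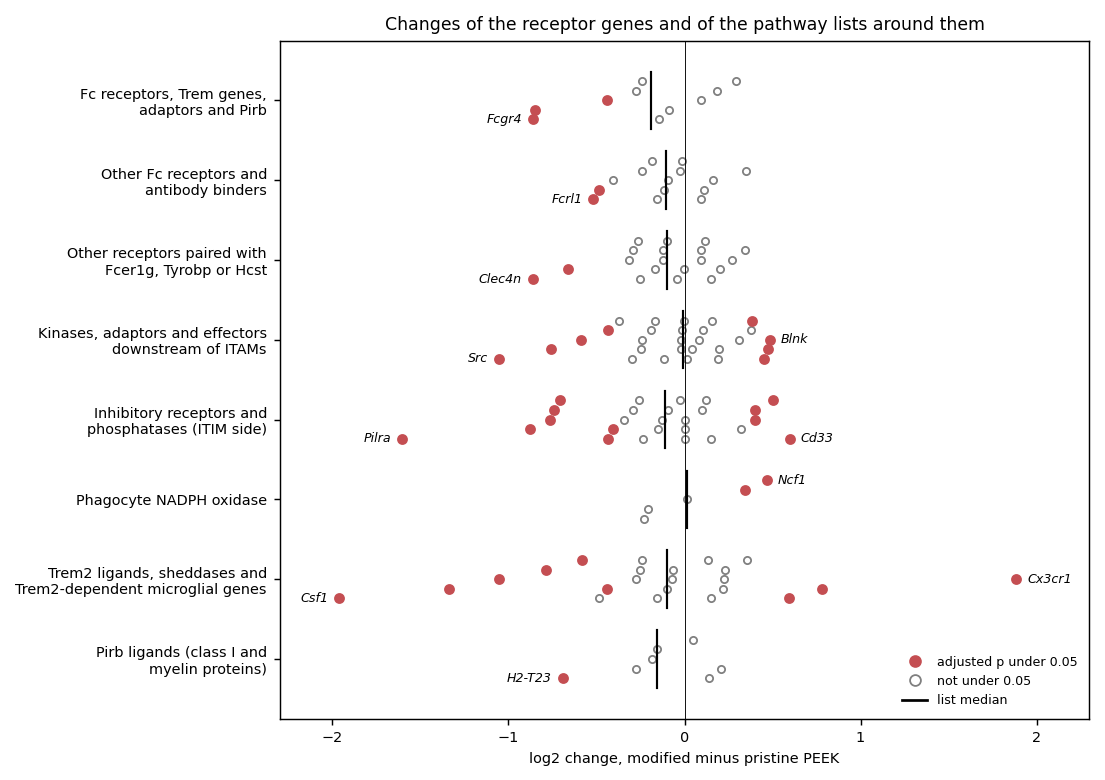
Log2 change, modified minus pristine PEEK (horizontal axis), of each measured gene in the receptor group and in 7 pathway lists; filled points passed a limma adjusted p of 0.05, the vertical bar is the list median, and vertical scatter within a row only separates points. Calls lie on both sides of 0 in the ITAM, ITIM and Trem2 lists, from -1.96 for Csf1 to 1.88 for Cx3cr1. Csf1 lay near the background on modified PEEK.

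The phagocyte NADPH oxidase makes superoxide after IgG receptors are engaged, and 2 of its 5 measured genes were higher and 0 lower by limma, with 1 lower at an unadjusted p under 0.05 and 1 by the ordinary t statistic. The median change of the 5 was 0.0130. Ncf1, encoding the cytosolic organiser subunit, had signals of 10.90, 10.82 and 10.90 on modified PEEK, against 10.42, 10.39 and 10.41 on pristine PEEK (1.38-fold higher, adjusted p = 0.0114). Cybb, encoding the catalytic subunit, rose by 0.35 (adjusted p = 0.0476). Cyba, encoding its membrane partner (-0.21, adjusted p = 0.301), and the GTPase gene Rac2 (0.0130, adjusted p = 0.957) did not pass. Leaving out any 1 of the modified PEEK arrays or pristine PEEK replicate 1 left 1 gene higher, and leaving out pristine PEEK replicate 2 or 3 left 0.

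The Trem2 list held Trem2 ligands, sheddases and microglial genes, of which some but not all depend on Trem2 in mice. Of its 23 measured genes 3 were higher and 6 lower, with a median change of -0.0970. The macrophage growth factor gene Csf1 had signals of 4.15, 4.24 and 3.62 on modified PEEK, against 5.77, 5.89 and 6.24 on pristine PEEK (log2 change -1.96, adjusted p = 0.000535). The integrin gene Itgax fell (-1.34, adjusted p = 0.000824), as did Ms4a6d (-1.05, adjusted p = 0.000517) and the receptor tyrosine kinase gene Axl (-0.79, adjusted p = 0.0117). Cx3cr1, which is expressed by resting microglia, rose by 1.88 (adjusted p = 4.43e-05). Other such genes in the list did not rise with it: Tmem119 did not pass (-0.0635, limma adjusted p = 0.875), and P2ry12 averaged below the background. The rest that passed, named after their values were seen, were the lipid-handling genes Lpl (0.59) and Fabp5 (0.78), and the lysosomal genes Ctsl (-0.58) and Cd63 (-0.44). Scaled to the spikes, 3 were lower. The lysosomal genes Gpnmb (-0.0970, adjusted p = 0.599) and Ctsb (-0.25, adjusted p = 0.121) did not pass. Without modified PEEK replicate 3 or pristine PEEK replicate 1, 1 gene was higher. Of 7 measured Pirb ligand genes 1 was lower and 0 higher by limma, 0 higher also at an unadjusted p under 0.05 and by the ordinary t statistic, with a median change of -0.16. Scaled to the spikes, 0 were lower. The gene was H2-T23, a non-classical class I gene, with 7.89, 7.77 and 7.74 on modified PEEK, against 8.48, 8.48 and 8.51 on pristine PEEK (adjusted p = 0.00222). B2m, the class I light chain (-0.16, adjusted p = 0.353), and Rtn4, encoding the myelin protein Nogo (0.14, adjusted p = 0.559), did not pass.

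**Figure D5:**
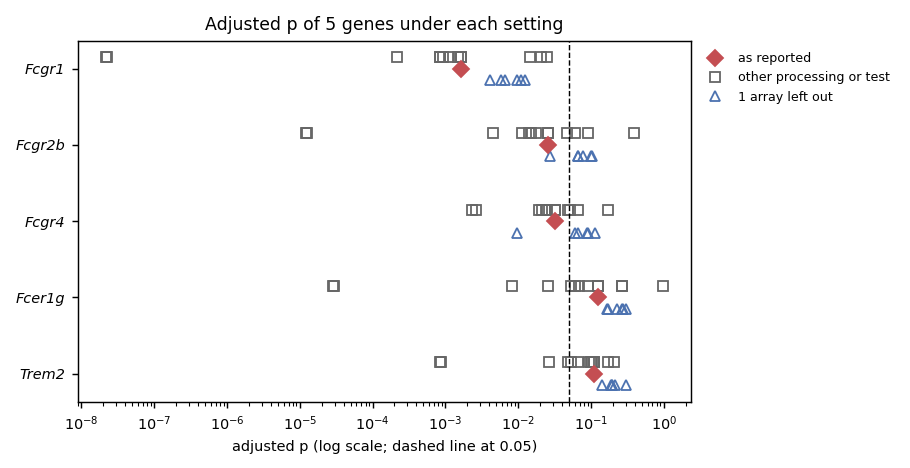
Adjusted p (log horizontal axis, dashed line at 0.05) of 5 genes as reported (red diamonds), under other processing or tests (grey squares) and with 1 array left out (blue triangles). Fcgr1 stays below 0.05 throughout, Fcgr2b and Fcgr4 fall on both sides when 1 array is left out, and Fcer1g and Trem2 pass under 4 settings each.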

How the data were processed

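Total RNA of RAW264.7 cells was profiled on 6 Affymetrix arrays, 3 per surface. The authors deposited log2 signals per probe set, a scale read from the range of the values (0.941 to 12.4). RMA is listed in the submitters' processing notes with neither version nor role. Which build the array annotation used was not determined, so no position from the files is printed. Of 29129 features, 19572 probe sets named 1 gene, 0 several and 2634 transcript probe sets none. For 55 genes with several probe sets, the brightest on average stood for the gene, giving 19505 genes. Of the per-sample columns, 0 were left unused.

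Surfaces were compared over all 6 arrays with limma 3.58.1 in R 4.3.3, by lmFit and eBayes without trend or covariate, two-sided and without a filter on dim genes. Benjamini-Hochberg adjustment ran over all genes, with a threshold of 0.05. There were 4 residual degrees of freedom and 4.09 from the prior, and the script was tested on simulated data. The members, lists and alternatives were chosen with earlier results of these data known. Lists are described by counts, with no set test. Named genes were the 10 members and, per pathway list, up to 5 called genes with the largest change and up to 2 of the highest mean signal that were not called. Syk, Ptpn11, Inppl1, Tmem119, P2ry12, Adgre1, Itgam, Mertk, Aif1, the other called list genes and the chromosomal neighbours were added after their values were seen. Some listed genes were not analysed here. The 4 motifs shown were kept from 9 searched, after the windows were seen.

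Alternatives were other normalizations, dim-gene filters, probe-set rules, variance models, array weights, a block for the replicate number, ordinary t statistics, and each array left out. The number of arrays limits the precision.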

Additional observations from a re-analysis of the deposited data

How the results depend on the processing

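Fcgr1 was called lower in all 19 alternatives. Fcgr2b was called in 11 of 19 and Fcgr4 in 10 of 18. These totals include the probe-set rules, which leave a gene with 1 probe set as it was. The dim-gene filters, variance models, block and ordinary t statistic also leave the change itself unaltered. Array weights or an array left out cannot reverse it where the groups do not overlap. Only the other normalizations could do so, and under each of them both changes stayed below 0. The number of the 10 genes called lower was 1 to 2 with 1 array left out and 1 with the replicate number as a block. The number called higher was 1, Trem2, scaled to the poly-A spikes, with the lowest 50% of genes left out, and with an intensity trend, robust or not. The change of Fcgr3 turned to 0.10, of Fcer1g to 0.00456 and of Trem1 to 0.16 when scaled to the spikes. That scaling moved the median of all genes to 0.26. Relative to that median the changes were -0.15, -0.25 and -0.0984. The Trem1 difference, between signals around the background, has no reading as a change, and with 1 array left out it ranged from -0.22 to 0.00758, above 0 without modified PEEK replicate 2 (0.00724) or pristine PEEK replicate 2 (0.00758). Of the shifts between partner genes, Fcgr4 minus Fcgr2b ranged from -0.61 to -0.22 and Fcgr4 minus Fcer1g from -0.84 to -0.40 with 1 array left out; scaling of whole arrays cancels in such a difference and tests nothing of it.

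Over all genes, the counts higher and lower were 1023 and 1004, 1575 and 290 scaled to the spikes, 1586 and 1719 with an intensity trend, 1580 and 1702 with the robust trend, and 646 and 622 with the replicate block. With the lowest 50% left out, 1522 were lower. Leaving out 1 array gave 594 to 903 higher and 548 to 1048 lower. The deviations of same-numbered arrays from their surface means had correlations of -0.17, -0.16 and 0.0685. With so few arrays per surface, these correlations cannot decide whether the replicate numbers are a pairing. The block is given here only.

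Over the 120 list genes, the counts higher and lower were 13 and 22, 17 and 6 scaled to the spikes, 16 and 31 with the lowest 50% left out, 19 and 36 with an intensity trend, 19 and 35 with the robust trend, and 5 and 15 with the replicate block. For other Fc receptors the number lower was 1 with median centring or the ordinary t statistic, 0 scaled to the spikes or with the block, and 0 to 2 with 1 array left out. The list of other paired receptors and Hcst had 1 gene higher after repeated quantile normalization, scaled to the spikes and with array weights. It also had 1 higher with any of the dim-gene filters. The number lower there was 0 scaled to the spikes, 4 with either trend, 1 with the ordinary t statistic, and 1 to 2 with 1 array left out. For the ITAM list, 7 were higher with either trend, 0 with the block, and 0 to 3 with 1 array left out, while 1 was lower scaled to the spikes and 8 with the lowest 50% left out. For the ITIM list, 2 were higher with the block and 2 to 3 with 1 array left out, and 2 were lower scaled to the spikes, 4 with the block, and 4 to 7 with 1 array left out. For the oxidase, 1 was higher with median centring, 0 with the block, and 0 to 1 with 1 array left out, and 1 was lower with the lowest 50% left out or the ordinary t statistic and 2 with either trend. For the Trem2 list, 5 were higher with either trend, 1 with the ordinary t statistic and 1 to 2 with 1 array left out, and 3 were lower scaled to the spikes. Of the Pirb ligands, 0 were lower scaled to the spikes, 2 with the lowest 50% left out and 4 with either trend.

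Leaving genes out means adjustment over fewer tests; the other causes were not tested. Fcgr4 and Trem1 were not tested with the lowest 50% left out.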
